A study of Homo sapiens with 10 samples.

Results

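*PDZK1*, *BCHE*, *RBM24* and *LURAP1L-AS1* are 4 of the 19695 genes counted by RNA-seq in T47D cells, an established human breast cancer line of luminal, hormone receptor positive type. They were chosen from their values, as genes much lower in the *CHD4* siRNA than in the *TRPS1* siRNA libraries, so that contrast is described here without a test. The same libraries enter the fits against control siRNA, so the choice favours the ranks and p-values of these genes there. The question was whether each gene lay below the control libraries upon silencing *CHD4* or above them upon silencing *TRPS1*. The cells had been transfected for 72 h with control siRNA, *TRPS1* siRNA or *CHD4* siRNA (2 libraries each), and the sample labels do not state whether the libraries of a group came from separate cultures, so the tests measure only the spread between these libraries. For *CHD4*, an siRNA is given in the labels and an shRNA in the methods of the study's sequencing. In addition, 1 list of TRPS1 ChIP-seq peaks was used, from 2 TRPS1 ChIP and 2 input libraries of T47D cells with no siRNA named in their labels. All libraries came from 1 cell line.

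TRPS1 is an atypical GATA transcription factor that acts as a repressor, and CHD4 is the ATPase of the NuRD complex, which joins nucleosome remodeling and histone deacetylation and mainly silences genes. *PDZK1* encodes a scaffold with PDZ domains that ties transporters and receptors to the apical membrane, and it is known as an oestrogen-induced gene of breast cancer cells. *BCHE* encodes butyrylcholinesterase, a secreted enzyme that splits choline esters. *RBM24* encodes an RNA-binding protein that steers splicing and mRNA stability in muscle and heart, and *LURAP1L-AS1* is a long noncoding RNA transcribed against *LURAP1L*. In RefSeq (GRCh38.p14) they lie on chromosome 1 from 145670852 to 145707400 (*PDZK1*), chromosome 3 from 165772904 to 165837423 (*BCHE*), chromosome 6 from 17281361 to 17293871 (*RBM24*) and chromosome 9 from 12699999 to 12814389 (*LURAP1L-AS1*).

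The siRNAs that define the groups, as listed by the study, are shown 5′ to 3′. Which of the numbered siRNAs went into the RNA-seq libraries is not stated in the sources used here.
control siRNA: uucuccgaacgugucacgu
TRPS1 siRNA#1: gucccuugaauguaguaaa
TRPS1 siRNA#2: gcacacagcugcuacaaau
CHD4 siRNA#1: cgggaguucaguaccaaua
CHD4 siRNA#2: gggcugcuuacuugaacau

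The 250 bases before the start site of each gene are shown. No TRPS1 peak overlaps these windows, and the nearest lay 740 bp upstream of the *PDZK1* start. The start of *RBM24* in the RefSeq promoter table lies inside the annotated span of the gene, and its window is therefore within that span. They are RefSeq sequences of GRCh38.p14, the build hg38 that the processing notes name, and each is read 5′ to 3′ on the strand of its gene. Capitals mark the motif AGGTCA, the core half-site bound by oestrogen receptors and other nuclear receptors. The windows lie at chr1:145707401-145707650 (*PDZK1*, minus strand), chr3:165837424-165837673 (*BCHE*, minus strand), chr6:17281814-17282063 (*RBM24*, plus strand) and chr9:12814390-12814639 (*LURAP1L-AS1*, minus strand).
PDZK1: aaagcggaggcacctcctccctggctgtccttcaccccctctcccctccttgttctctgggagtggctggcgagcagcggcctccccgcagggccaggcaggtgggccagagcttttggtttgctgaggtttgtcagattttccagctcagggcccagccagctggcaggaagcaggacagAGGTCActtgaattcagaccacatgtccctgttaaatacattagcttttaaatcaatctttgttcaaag
BCHE: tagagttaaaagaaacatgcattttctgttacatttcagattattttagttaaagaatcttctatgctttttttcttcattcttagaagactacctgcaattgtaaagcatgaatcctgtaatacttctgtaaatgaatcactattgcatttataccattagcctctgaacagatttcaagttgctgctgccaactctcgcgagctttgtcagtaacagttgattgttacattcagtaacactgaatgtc
RBM24: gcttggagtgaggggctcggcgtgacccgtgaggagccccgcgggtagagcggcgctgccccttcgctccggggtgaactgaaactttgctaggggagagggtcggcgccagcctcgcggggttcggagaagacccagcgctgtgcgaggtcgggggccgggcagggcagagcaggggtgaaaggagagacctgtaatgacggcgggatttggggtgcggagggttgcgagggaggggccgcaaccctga
LURAP1L-AS1: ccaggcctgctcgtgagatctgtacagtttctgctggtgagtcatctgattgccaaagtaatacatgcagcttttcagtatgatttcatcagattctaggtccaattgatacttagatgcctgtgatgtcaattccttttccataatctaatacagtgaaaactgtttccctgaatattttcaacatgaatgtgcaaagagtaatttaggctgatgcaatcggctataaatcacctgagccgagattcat

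These windows differed in composition. That of *RBM24* was 69.2% G and C with 23 CpG dinucleotides, and that of *PDZK1* 55.6% with 4, while those of *LURAP1L-AS1* (39.2%, 3 CpG) and *BCHE* (33.2%, 2 CpG) were poorer in both. The median over 35116 such windows was 58%, so only *RBM24* lay above it. The GATA-type motif AGATAA, the motif AGATAG, the motif TGATAA and the motif TGATAG, searched on both strands, were in none of the 4 windows and in 22.3% of all windows. AGGTCA was in the *PDZK1* window alone, 64 to 69 bases before the start, and in 12.1% of all windows. The RefSeq promoter table lists 2 starts for *PDZK1*, and the motif lay 96 to 101 bases before the one not shown. No match says only that these letters are not in these 250 bases.

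Library totals ranged from 10333138 to 14668358 counts. The control siRNA libraries differed more between themselves than the others, with a median absolute log2 ratio of 0.71 over 12692 genes, against 0.21 for *TRPS1* siRNA and 0.25 for *CHD4* siRNA. Control siRNA replicate 1 had no count for 5059 genes, against 1899 to 2916 in the other 5 libraries, and results for the 4 genes and for related genes are therefore also given without it. All 9 luminal markers examined had more than 3 counts in every library, while 6 basal or mesenchymal markers summed to between 2.16 and 19.4 TMM-normalized CPM (counts scaled to library size by the trimmed mean of M-values over the 6 libraries). The luminal sum was 14434 and 11716 CPM with control siRNA, 6157 and 6278 with *TRPS1* siRNA and 7109 and 5302 with *CHD4* siRNA, and its part in the values below was not tested. Fitted log2 fold changes lay below 0 in 8 of these 9 markers upon *TRPS1* silencing and in 7 upon *CHD4* silencing. *KRT8* had mean CPM of 4257 with control, 1151 with *TRPS1* and 1177 with *CHD4* siRNA. In this order *KRT19* had 2807, 1069 and 1037, *EPCAM* 99, 126 and 118.5, and *FOXA1* 277, 230 and 319. The fall was thus not shared by all markers, and those named here were picked after their values were seen. *CHD4* itself had 295 and 292 CPM with control siRNA and 96.2 and 54.2 CPM upon *CHD4* silencing. *TRPS1* had 1418 and 2323 CPM with control siRNA and 1149 and 728 CPM upon *TRPS1* silencing, so *TRPS1* siRNA replicate 1 lay near control siRNA replicate 1. The fitted log2 fold changes of the silenced genes were -1.96 (standard error 0.42) for *CHD4* and -0.97 (0.39) for *TRPS1*.

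Among the 4 genes, *RBM24* was the one whose level with *CHD4* siRNA lay farthest below the controls. It had 33.1 and 28.6 CPM with control siRNA (460 and 370 counts), 5.35 and 5.60 CPM with *CHD4* siRNA (57 and 70 counts), and 21.3 and 25.9 CPM with *TRPS1* siRNA (225 and 392 counts). Both *CHD4* siRNA libraries lay far below all 4 other libraries, and the *TRPS1* siRNA libraries lay slightly below both controls. As these are bulk libraries, fewer cells expressing the gene and less RNA per cell cannot be told apart. In the fit of *CHD4* siRNA against control siRNA, *RBM24* was 5.60-fold lower (log2 fold change -2.48, standard error, SE, 0.44, unadjusted p = 0.000617, adjusted p = 0.749 from edgeR's quasi-likelihood test). It ranked 5 from the lowest of 12918 genes tested by log2 fold change and 6 by p. Its low *CHD4* siRNA values had a part in its choice, so nothing is read from these ranks. With DESeq2 the adjusted p was 0.00258, and over 13 alternative fits it ranged from 0.00146 to 0.9999, under 0.05 in 5. Against control siRNA, *TRPS1* siRNA gave -0.38 (SE 0.36, adjusted p = 0.751 from edgeR). In *RBM24*, the difference between the knockdowns was therefore made up of a level below control upon *CHD4* silencing.

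*PDZK1* lay on opposite sides of the controls in the knockdowns. It had 69.7 and 111 CPM with control siRNA (970 and 1440 counts), 31.5 and 25.4 CPM with *CHD4* siRNA (336 and 317 counts), and 159 and 146 CPM with *TRPS1* siRNA (1688 and 2211 counts). Every *CHD4* siRNA library lay below both controls and every *TRPS1* siRNA library above them. Upon *CHD4* silencing *PDZK1* was 3.15-fold lower (log2 fold change -1.66, standard error 0.42, unadjusted p = 0.00479, adjusted p = 0.792 from edgeR). Upon *TRPS1* silencing its log2 fold change came to 0.78 (SE 0.36, unadjusted p = 0.0715, adjusted p = 0.659 from edgeR), under a fold change of 2. Leaving out a control changed this value, to 0.50 without replicate 1 and to 1.11 without replicate 2, where it passed 2-fold (unadjusted p = 0.000595). The call upon *CHD4* silencing was lost without *CHD4* siRNA replicate 2 (log2 fold change -1.49, unadjusted p = 0.0956) and held when any other library was left out. Both *CHD4* siRNA libraries below and both *TRPS1* siRNA libraries above both controls were found in 102 of 12692 genes (0.804%), but as *PDZK1* was chosen for this gap, nothing is read from that share. *PDZK1P1*, a pseudogene copy of *PDZK1* elsewhere on chromosome 1, had 0 to 19 counts per library. How the counting divided reads between the copies is not given in the sources used here, so the *PDZK1* counts may include or miss some.

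*BCHE* was higher with *TRPS1* siRNA than in either control. It had 6.54 and 28.4 CPM with control siRNA (91 and 368 counts), 101 CPM in each *TRPS1* siRNA library (1071 and 1530 counts), and 27.3 and 29.0 CPM with *CHD4* siRNA (291 and 363 counts). The *CHD4* siRNA libraries thus lay at the level of control siRNA replicate 2 and above replicate 1, and the controls differed by 4.34-fold. Upon *TRPS1* silencing *BCHE* was 5.92-fold higher in the fit (log2 fold change 2.57, standard error 0.67, unadjusted p = 0.00768, adjusted p = 0.659 from edgeR). Its *TRPS1* siRNA values had a part in its choice, which favours this p and those of the other fits. Against control siRNA replicate 1 each *TRPS1* siRNA library was 15.5-fold higher, and against replicate 2 it was 3.56-fold higher. The adjusted p was 0.0113 with DESeq2, and over 13 alternative fits it ranged from 0.000367 to 1.0, under 0.05 in 4. Upon *CHD4* silencing the fitted value was 0.72 on the log2 scale (SE 0.65, adjusted p = 0.819 from edgeR), and it was 0.04 without control siRNA replicate 1 and 2.09 without replicate 2 (adjusted p = 0.0111 from edgeR). In *BCHE* the difference between the knockdowns was made up of a level above control upon *TRPS1* silencing, with no level below both controls upon *CHD4* silencing.

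For *LURAP1L-AS1* the controls did not give an answer. It had 3 and 132 counts with control siRNA (0.216 and 10.2 CPM), 209 and 250 counts with *TRPS1* siRNA (19.8 and 16.5 CPM), and 35 and 36 counts with *CHD4* siRNA (3.28 and 2.88 CPM). The *CHD4* siRNA libraries lay between the controls, of which replicate 1 was at the limit of detection of 3 counts. Both *TRPS1* siRNA libraries lay above both controls, 1.94-fold and 1.62-fold above replicate 2. The gene passed the filter on low counts through control siRNA replicate 2 and the knockdown libraries. On the log2 scale it differed upon *CHD4* silencing by -0.72 (SE 1.28, adjusted p = 0.902 from edgeR), and it was -1.68 without control siRNA replicate 1 (unadjusted p = 0.00442) and 3.76 without replicate 2 (unadjusted p = 0.000773). Upon *TRPS1* silencing it was 1.84 (SE 1.24, adjusted p = 0.682 from edgeR), 0.87 without control siRNA replicate 1 and 6.31 without replicate 2. Measured against control siRNA replicate 2, *LURAP1L-AS1* had the pattern of *PDZK1*, but with replicate 1 included no side could be assigned upon *CHD4* silencing.

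**Figure D1:**
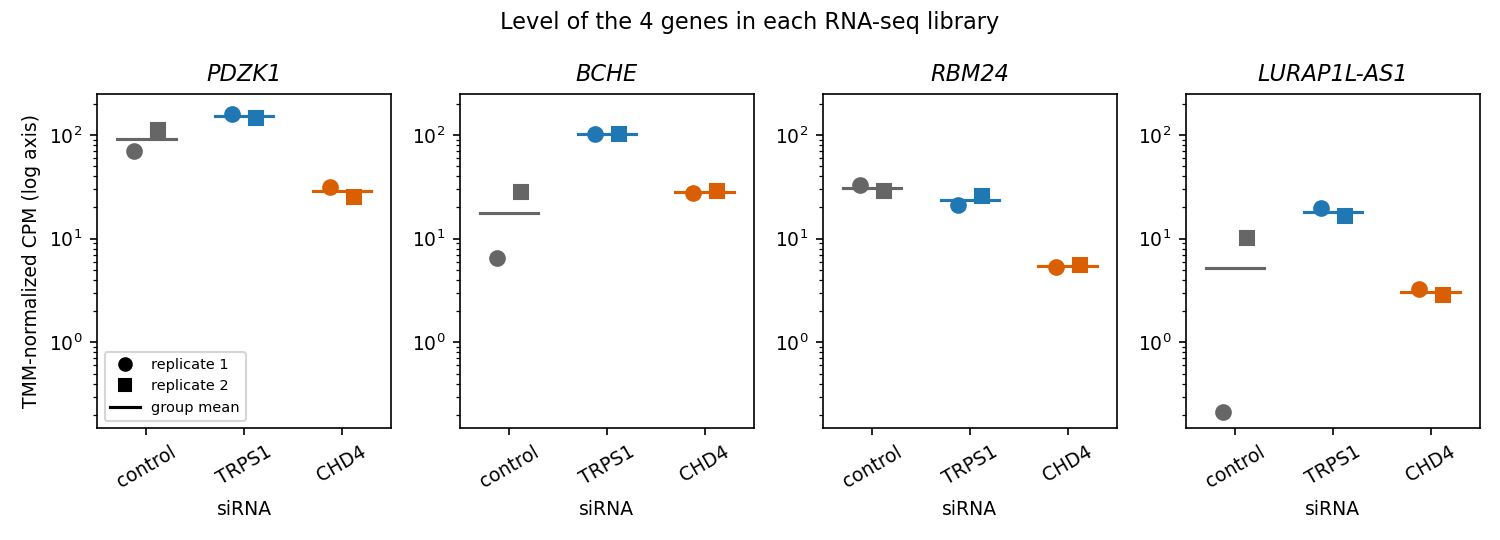
TMM-normalized CPM of the 4 genes on a log axis, with 1 point per library (circle, replicate 1; square, replicate 2) and a line at each group mean. *RBM24* and *PDZK1* lie below both controls with *CHD4* siRNA, *BCHE* lies above both controls with *TRPS1* siRNA, and the controls of *LURAP1L-AS1* are at 0.216 and 10.2 CPM.

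In all, 2 of the 4 genes (*PDZK1*, *RBM24*) passed the study's threshold in the lower direction upon *CHD4* silencing, that is, they differed by more than 2-fold at an unadjusted p under 0.05, against 2.85% of the 12918 genes tested. None passed it as higher, against 2.60%. Upon *TRPS1* silencing, 1 of the 4 (*BCHE*) passed it in the higher direction, against 2.70% of 12921 genes, and none as lower, against 3.17%. The *CHD4* siRNA libraries lay below both controls in the same 2 genes and in 20.7% of all genes tested, and the *TRPS1* siRNA libraries lay above both controls in 3 of the 4 (all but *RBM24*) and in 21.5% of all genes. Because the knockdown libraries had chosen the genes, nothing is read from these counts. No gene had an adjusted p under 0.05 in either quasi-likelihood fit, where 769 genes (5.95%) upon *CHD4* silencing and 902 (6.98%) upon *TRPS1* silencing had an unadjusted p under 0.05. DESeq2 gave 50 and 39 genes with an adjusted p under 0.05 and edgeR's likelihood ratio test 58 and 34.

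**Figure D2:**
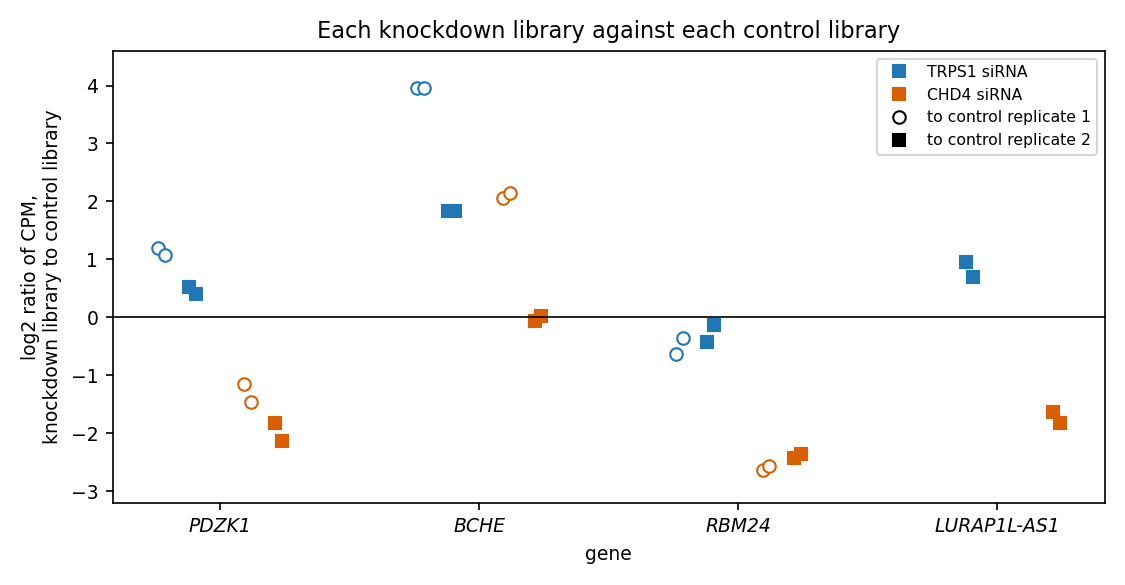
Log2 ratio of CPM of each knockdown library (blue, *TRPS1* siRNA; orange, *CHD4* siRNA) to each control library (open circles, replicate 1; filled squares, replicate 2). *RBM24* with *CHD4* siRNA lies between -2.63 and -2.35 whichever control is used, whereas *BCHE* with *CHD4* siRNA is at 2.06 and 2.15 against control replicate 1 and at -0.06 and 0.03 against replicate 2. Ratios of *LURAP1L-AS1* to control replicate 1, which had 3 counts, are left out.

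In the contrast that chose them, given as a description only, the *CHD4* siRNA libraries lay below the *TRPS1* siRNA libraries by log2 fold changes of -2.56 for *LURAP1L-AS1*, -2.43 for *PDZK1*, -2.11 for *RBM24* and -1.84 for *BCHE*. Their standard errors were 0.26, 0.18, 0.23 and 0.15. By log2 fold change they ranked 8, 10, 19 and 25 from the lowest of 13143 genes, and *CHD4* itself ranked 24. In that contrast 1.56% of genes passed the study's threshold as lower and 2.12% as higher. In these genes the ratio of replicate 2 to 1 was 0.837 to 1.22 with *TRPS1* siRNA and 0.805 to 1.06 with *CHD4* siRNA. Over 12692 genes the median absolute log2 ratio was 0.21 and 0.25. As the 4 genes were chosen from these libraries, nothing is read from how close the replicates were.

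**Figure D3:**
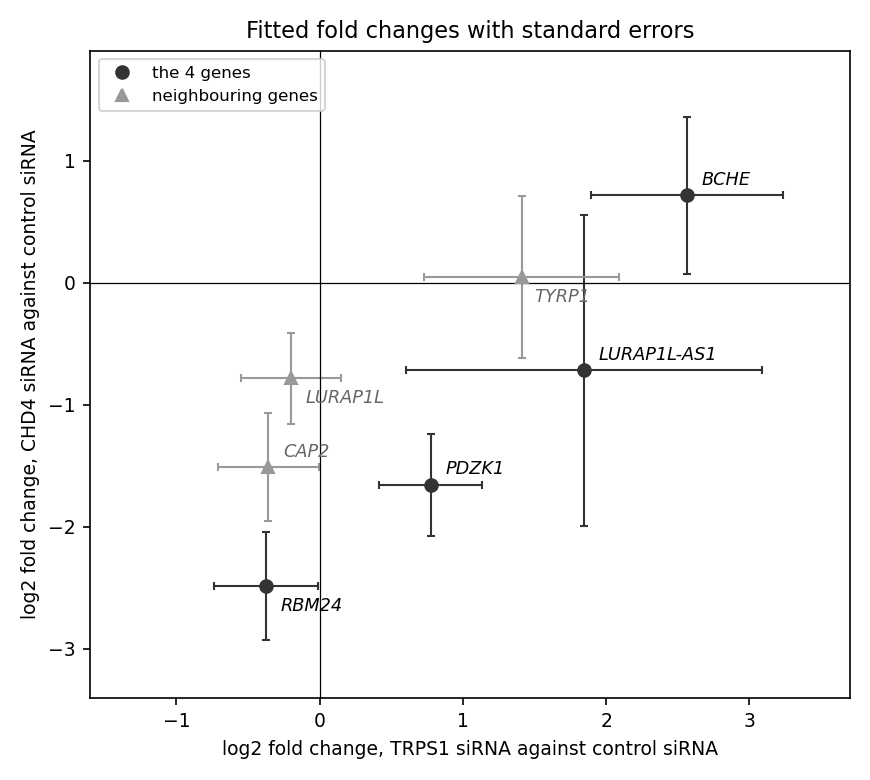
Fitted log2 fold changes against control siRNA upon *TRPS1* silencing (horizontal axis) and *CHD4* silencing (vertical axis), with standard errors, for the 4 genes (circles) and 3 of their neighbours (triangles). *RBM24* lies low on the vertical axis near 0 on the horizontal one, *BCHE* lies far to the right, and *PDZK1* is in the lower right. Both axes share the control libraries.

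The 6 libraries did not give the 4 genes a common profile. Across the libraries, Pearson's r of log2 CPM was 0.94 between *BCHE* and *LURAP1L-AS1* and 0.85 between *PDZK1* and *RBM24*, but -0.01 between *BCHE* and *RBM24* and 0.07 between *RBM24* and *LURAP1L-AS1*. With 6 libraries in 3 groups, these values are descriptions. They include control siRNA replicate 1, the lowest library for both *BCHE* (6.54 CPM) and *LURAP1L-AS1* (0.216 CPM), and were not computed without it. The genes most like *RBM24* among 13268 were *PPP1R2*, *DYNC1LI1* and *STRAP* (r between 0.993 and 0.998). *PPP1R2*, which encodes an inhibitor of protein phosphatase 1, had 148 and 139 CPM with control siRNA, 114 and 133 CPM with *TRPS1* siRNA, and 61.1 and 63.5 CPM with *CHD4* siRNA. The genes most like *PDZK1* were *FUNDC1*, *TIMM10B* and *ASB1* (0.986 to 0.994), those most like *BCHE* were *GPR176*, *CT62* and *WAC-AS1* (0.997 to 0.9999), and those most like *LURAP1L-AS1* were *CRYZL1*, *SLC35F5* and *EIF4E3* (0.994 to 0.995). *GPR176*, an orphan G protein-coupled receptor, followed the shape of *BCHE* over a smaller range, from 20.6 CPM in control siRNA replicate 1 to 34.8 and 34.7 CPM with *TRPS1* siRNA. Control siRNA replicate 1 was the lowest library in each gene listed here as most like *BCHE* or *LURAP1L-AS1*. Its part in these likenesses was not tested.

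TRPS1 peaks lay at different distances from the 4 start sites. The rule had not used the ChIP-seq data. The *PDZK1* start on chromosome 1 at 145707400 had a peak 740 bp upstream (145708140 to 145708515). Among 13709 genes of the count tables with a start site in the reference table, 2.44% had a peak within 1 kb. The *BCHE* start on chromosome 3 at 165837423 had a peak 15.4 kb upstream (165852843 to 165853138), the only peak within 500 kb, and 6.21% of genes had a peak within 20 kb. *LURAP1L-AS1*, starting on chromosome 9 at 12814389, had a peak 12.2 kb upstream (12826632 to 12826996) and another 19.5 kb downstream, inside the gene (12794713 to 12794922). It had 3 peaks within 100 kb and 8 within 500 kb, windows in which 19.5% and 52.3% of genes had a peak.

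*RBM24*, starting on chromosome 6 at 17282064, had no peak within 100 kb, where 19.5% of genes had one. Its nearest peak (17389141 to 17389660) lay 107 kb downstream, beyond the end of the gene. The 3 genes that lay above both controls upon *TRPS1* silencing each had a peak within 100 kb of the start, and *RBM24*, which did not, had none. Of the 3, only *BCHE* passed the study's threshold upon that silencing, and 21.5% of all genes tested lay above both controls. With 4 genes chosen from their expression and 1 peak list without replicate error, a link between peaks and direction was not tested. The bases of the peaks are not printed, as they lie outside the promoter sequences used here.

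**Figure D4:**
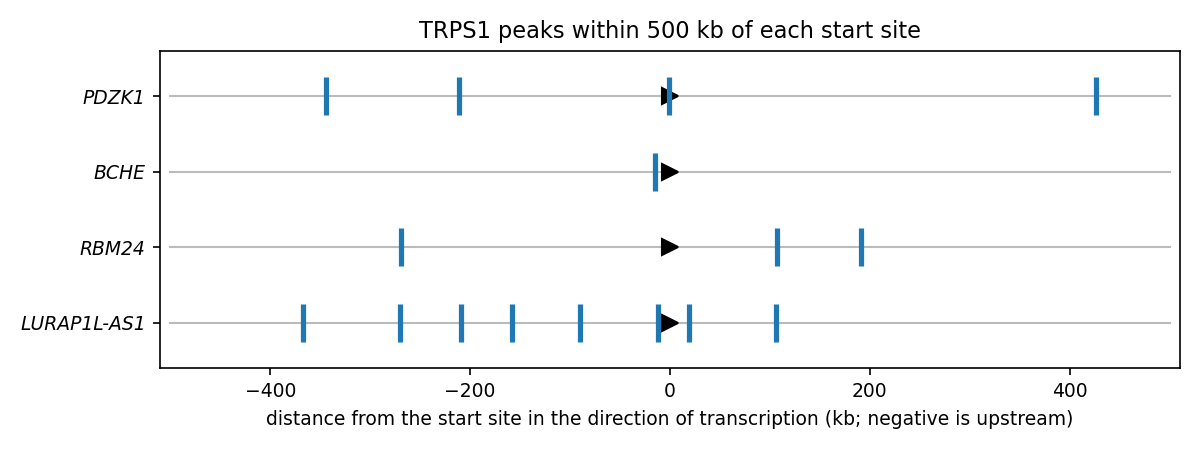
TRPS1 peaks (bars) within 500 kb of the start site (triangle) of each gene, in kb along the direction of transcription, with negative values upstream. The peak of *PDZK1* is 0.74 kb upstream, those of *BCHE* and *LURAP1L-AS1* nearest to the start are 15.4 and 12.2 kb upstream, and *RBM24* has none within 100 kb.

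Neighbouring genes were examined next. Of 27 counted genes with a start within 500 kb of a member's start, 21 were tested upon *CHD4* silencing and 22 upon *TRPS1* silencing. With both controls, only *CAP2*, starting 111.5 kb from *RBM24*, passed the study's threshold, and it did so upon *CHD4* silencing. Over all genes tested, 2.85% passed as lower upon that silencing. It encodes a cyclase-associated protein that acts on actin. *CAP2* had 697 and 528 counts with control siRNA, 389 and 510 with *TRPS1* siRNA, and 214 and 147 with *CHD4* siRNA. It was 2.85-fold lower upon *CHD4* silencing (log2 fold change -1.51, standard error 0.45, unadjusted p = 0.0105, adjusted p = 0.792 from edgeR), and its log2 fold change upon *TRPS1* silencing was -0.36 (0.35). Without control siRNA replicate 1 its log2 fold change upon *CHD4* silencing was -1.31, and without replicate 2 it was -1.68. Which neighbours passed the threshold depended on the control libraries used. Without replicate 1 the median over the tested neighbours was -0.02 upon *CHD4* silencing and 0.12 upon *TRPS1* silencing. The peak nearest to *RBM24* lay 3935 bp upstream of the *CAP2* start. The other neighbours of *RBM24* that were tested were all named, *STMND1* and *FAM8A1* after their values were seen. With *NUP153* they had log2 fold changes of 0.75, -0.31 and -0.39 upon *CHD4* silencing, in this order. Over all 21 neighbours the median was 0.05, and -0.02 over all genes tested.

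Next to *LURAP1L-AS1* on chromosome 9 lie *LURAP1L*, its antisense partner, and *TYRP1*, which encodes a melanosome protein. Both overlap *LURAP1L-AS1* in the annotation, and the strand setting of the counting is not given in the sources used here, so reads from overlapping genes on opposite strands may not be separable. *LURAP1L* had 239 and 331 CPM with control siRNA, 284 and 206 CPM with *TRPS1* siRNA, and 186 and 142 CPM with *CHD4* siRNA. Its log2 fold change was -0.78 (standard error 0.37) upon *CHD4* silencing and -0.20 (0.35) upon *TRPS1* silencing. *TYRP1*, named after its values were seen, had 144 and 617 counts with control siRNA, 889 and 1005 with *TRPS1* siRNA, and 367 and 306 with *CHD4* siRNA. Like *LURAP1L-AS1*, it was highest with *TRPS1* siRNA and its *CHD4* siRNA libraries lay between the controls. Its log2 fold changes were 1.41 (standard error 0.68) upon *TRPS1* silencing and 0.05 (0.66) upon *CHD4* silencing, neither past the threshold. With both controls, no tested neighbour of *PDZK1* passed the threshold in either knockdown. *BCHE* had no counted neighbour within 500 kb.

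Genes with related functions were then counted, from lists chosen with earlier results of these data known. Control siRNA replicate 1 decided several of these calls. Log2 fold changes without it, and list medians with each control library left out, are therefore given too. Such fits keep 1 control library, so calls in them are not counted. The median over all genes lay between -0.024 and 0.035 with both controls or with either left out. With both controls, 2.85% of all genes passed as lower upon *CHD4* silencing and 3.17% upon *TRPS1* silencing. As higher, 2.60% and 2.70% passed. Of the NHERF scaffolds (the family of *PDZK1*) and ligands of PDZK1, 7 were tested. Upon *CHD4* silencing 2 of these passed the threshold as lower and none as higher, with a median log2 fold change of -1.06. They were *SLC9A3R1*, the NHERF1 scaffold (-1.46, standard error 0.50), and *SLC22A5*, the carnitine transporter (-1.21, 0.41). Upon *TRPS1* silencing 3 passed as lower and none as higher, with a median of -0.98. They were *SLC22A5* (-1.13, 0.37), the HDL receptor *SCARB1* (-1.13, 0.42) and the anion exchanger *SLC26A6* (-1.15, 0.46). Without control siRNA replicate 2 the list medians were -1.24 upon *CHD4* silencing and -1.52 upon *TRPS1* silencing. Without replicate 1 they were -0.32 and -0.52, and *SLC22A5* was at -1.27 and -1.20. *SLC9A3R1* was then at -0.56 upon *CHD4* silencing, and *SCARB1* and *SLC26A6* at -0.56 and -0.52 upon *TRPS1* silencing. The controls differed in these genes, with 14214 and 5096 counts for *SLC9A3R1*, 6436 and 3185 for *SCARB1*, and 956 and 447 for *SLC26A6*.

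Of the oestrogen-responsive genes other than *PDZK1*, 3 of 11 tested passed the threshold as lower upon *CHD4* silencing and 3 of 12 upon *TRPS1* silencing, and none as higher. The medians were -0.64 and -0.39, against -0.02 over all genes in both fits. Without control siRNA replicate 1 they were -0.45 and 0.0070, and without replicate 2 they were -0.81 and -0.45. *CXCL12*, a chemokine, had -1.21 (standard error 0.36) upon *CHD4* silencing and -0.41 (0.32) upon *TRPS1* silencing. *CCND1*, which encodes cyclin D1, had -1.28 (0.36) and -1.18 (0.33), and *XBP1* had -1.03 (0.41) and -1.03 (0.31). *CA12*, a carbonic anhydrase, had -0.65 (0.36) and -1.04 (0.32). Without control siRNA replicate 1, *CA12* was at -0.86 and *CCND1* at -0.91 upon *TRPS1* silencing, under a fold change of 2. *ESR1*, the oestrogen receptor itself, named after its values were seen, had -0.61 in both (standard errors 0.38 and 0.35), and did not pass the threshold. Log2 fold changes lay above 0 in 2 of 11 upon *CHD4* silencing (*AREG* 0.39, *IGFBP4* 0.23). Upon *TRPS1* silencing they did in 2 of 12 (*TFF1* 0.86, *AREG* 0.08). *TFF1* had 23 and 20 counts with control siRNA, 29 and 46 with *TRPS1* siRNA, and 3 and 11 with *CHD4* siRNA. At these low counts it lay, like *PDZK1*, on opposite sides of the controls, but was not tested upon *CHD4* silencing. These genes were also named after their values were seen.

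Among relatives of cholinesterase and genes of acetylcholine handling, 6 were tested in each fit, with medians of 0.18 upon *CHD4* silencing and -0.13 upon *TRPS1* silencing. *ACHE*, which encodes acetylcholinesterase, passed the threshold upon *CHD4* silencing, in the higher direction. It had 15 and 4 counts with control siRNA, 32 and 27 with *TRPS1* siRNA, and 74 and 41 with *CHD4* siRNA (log2 fold change 2.85, standard error 0.90), and it was 4.04 without control siRNA replicate 1. The list medians were 0.57 and 0.46 without that library, and -0.03 and -0.38 without control siRNA replicate 2. *ACHE* itself was not tested upon *TRPS1* silencing because too few libraries passed 2 CPM. The cholinesterases thus differed in which knockdown had the highest level, *CHD4* siRNA for *ACHE* and *TRPS1* siRNA for *BCHE*. For *ACHE* the knockdowns nearly met, with 3.28 CPM in *CHD4* siRNA replicate 2 and 3.02 CPM in *TRPS1* siRNA replicate 1.

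Of *RBM38*, the paralog of *RBM24*, mRNAs known to be bound by both proteins, and other splicing regulators, 17 were tested upon *CHD4* silencing. Among them 1 passed as higher and 1 as lower, with a median of -0.18, and upon *TRPS1* silencing 1 of 16 passed as higher and 2 as lower, with a median of -0.11. *RBM38* had log2 fold changes of 0.17 (standard error 0.44) upon *CHD4* silencing and -0.43 (0.44) upon *TRPS1* silencing. *CDKN1A*, the p21 cell cycle inhibitor, passed as lower in both (-1.23, 0.47, and -1.32, 0.47). *TP63* passed as higher in both (3.06, 0.72, and 2.36, 0.65). *ESRP2*, an epithelial splicing factor, passed as lower upon *TRPS1* silencing (-1.14, 0.46), while upon *CHD4* silencing it had -1.14 (0.49). Without control siRNA replicate 1, *TP63* was at 3.11 and 2.39, *CDKN1A* at -0.54 and -0.64, and *ESRP2* at -0.44 upon *TRPS1* silencing. Of these only *TP63* stayed past a fold change of 2. The genes of the list passing as higher upon *CHD4* silencing changed too. The list medians were then -0.38 and -0.12, and they were 0.01 and 0.19 without control siRNA replicate 2.

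**Figure D5:**
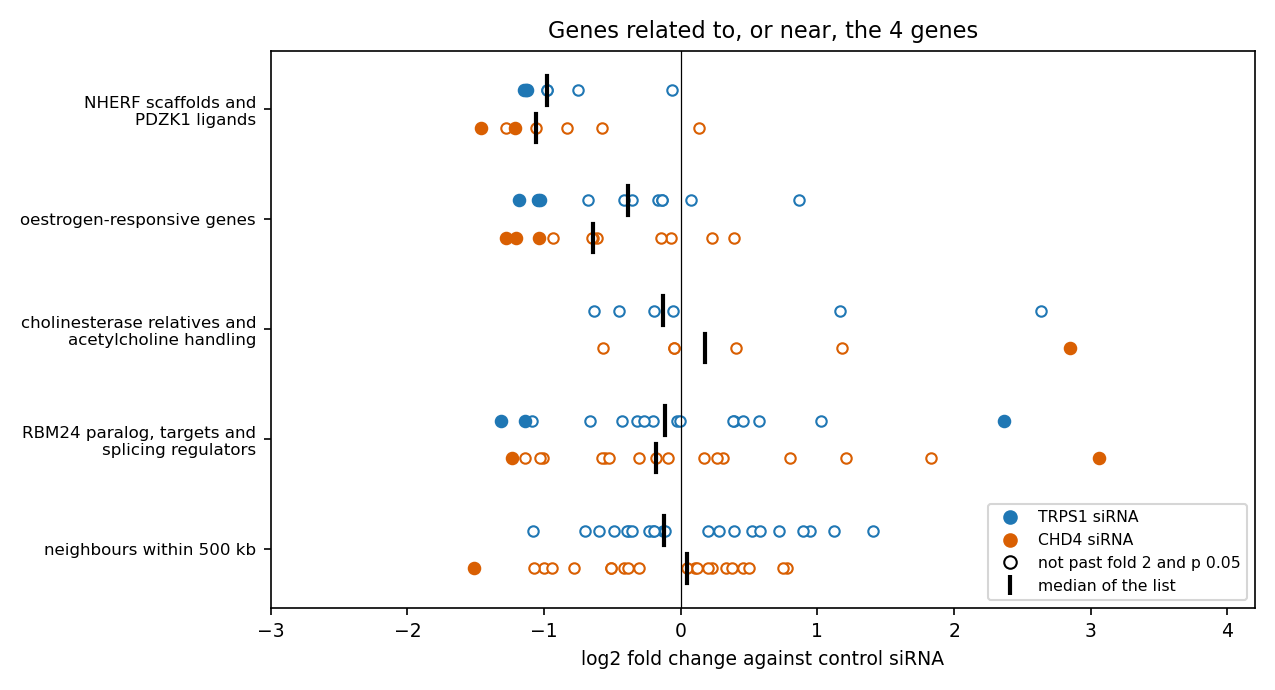
Log2 fold changes against control siRNA of the tested genes of each list, upon *TRPS1* silencing (blue) and *CHD4* silencing (orange). Filled points differed by more than 2-fold at an unadjusted p under 0.05, and black bars are list medians, all from the fits with both controls. The scaffold and ligand list lies mostly below 0, with medians of -0.98 and -1.06, and *CAP2* is the only filled neighbour.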

How the data were processed

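RNA-seq libraries of T47D cells (2 per siRNA, grouped by title) and 1 TRPS1 peak list were used. The authors trimmed the reads, used STAR and HTSeq (0.9.0) for RNA-seq, and deposited the counts per gene symbol without normalization. For ChIP-seq the authors used BWA (0.7.12-r1039) and MACS2 (2.1.1), and deposited the start and end of each of 1844 peaks, on hg38 per the processing notes.

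Both count tables were joined by symbol, with 0 counts for a symbol listed in only the other table. The control counts were equal in both. Each pair of groups was fitted in edgeR (4.0.16, R 4.3.3) after keeping genes that exceeded 2 CPM in 2 or more of 4 libraries, with TMM factors, the quasi-likelihood F-test, a prior count of 0.125 and Benjamini-Hochberg adjustment over all genes tested. SE is the absolute log2 fold change over the root of F. An exact test of 2 libraries against 2 cannot give a two-sided p below 0.3333. The fits were tested on simulated data with the same dispersion in every library. The wider spread between the control libraries was not simulated. Start sites, neighbours and promoters come from RefSeq, and all 4 genes matched by symbol. A neighbour without a start site in the promoter table was placed by its lower coordinate.

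Named genes are the 4 members, the silenced genes, paralogs and antisense partners, list and neighbour genes past the threshold or otherwise up to 4 per list with the highest CPM, and the 3 genes most correlated with each member. The members and lists were chosen with earlier results of these data known. Alternatives were the likelihood ratio test, DESeq2 (1.42.0), RLE factors, unscaled library sizes, other low-count filters, a joint fit of 6 libraries, blocking on replicate number, another prior count, each library left out, and other peak windows. Leaving out a control library for the gene lists was added after the data were seen. Figures were drawn with matplotlib (3.10.9).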

Additional observations from a re-analysis of the deposited data

Results flagged for a closer look

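The log2 fold change of *PDZK1* against control siRNA was -1.66 with *CHD4* siRNA and 0.78 with *TRPS1* siRNA. It stood out because both *CHD4* siRNA libraries lay below and both *TRPS1* siRNA libraries above both control siRNA libraries. The difference between these effects was not tested, since *PDZK1* was chosen for it, and both use the same control libraries.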

How the results depend on the processing

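With all libraries kept, the direction of the log2 fold change of each member against control siRNA held under every alternative run, except *LURAP1L-AS1* upon *CHD4* silencing, which was 0.66 with a replicate block. The adjusted p passed below 0.05 in some. For *RBM24* upon *CHD4* silencing it did so with the likelihood ratio test (log2 fold change -2.48), DESeq2 (-2.49), no low-count filter (-2.50) and a replicate block (-2.48). For *BCHE* upon *TRPS1* silencing it did so with DESeq2 (2.56) and a replicate block (2.88), and for *LURAP1L-AS1* with a replicate block (3.001). The cause was not tested. With over 2 CPM required in every library, *LURAP1L-AS1* could not be tested against control siRNA.

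Leaving out each library in turn, log2 fold changes upon *CHD4* silencing ranged from -1.92 to -1.31 (*PDZK1*), 0.038 to 2.09 (*BCHE*), -2.61 to -2.33 (*RBM24*) and -1.68 to 3.76 (*LURAP1L-AS1*), and upon *TRPS1* silencing from 0.50 to 1.11, 1.88 to 3.93, -0.51 to -0.23 and 0.87 to 6.31. The ends were set by leaving out control siRNA replicate 1 or 2, and the lone library left was assumed to vary like the other group.

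The number of genes past the study's threshold was 704 upon *CHD4* silencing and 759 upon *TRPS1* silencing. It was 1403 and 1359 without a low-count filter, 1221 upon *TRPS1* silencing with a replicate block, and from 91 to 3969 and from 74 to 4304 with a library left out. At an adjusted p under 0.05 the likelihood ratio test gave 58 and 34 genes, DESeq2 50 and 39, a replicate block 44 and 32, no filter 111 upon *CHD4* silencing, and leaving out a library 0 to 3874 and 0 to 6070. Between the knockdowns 483 genes passed the study's threshold, 751 without a filter, 313 with over 2 CPM in every library, 320 with all 6 libraries in 1 fit, and 482 to 724 with a library left out. At an adjusted p under 0.05 there were none, but 570 with the likelihood ratio test, 456 with DESeq2, 424 without a filter, 3372 with a replicate block and 0 to 103 with a library left out. The deviations of replicate 1 correlated with r = 0.07 between control siRNA and *TRPS1* siRNA, 0.01 between control siRNA and *CHD4* siRNA, and 0.64 between the knockdowns. The labels do not state what a replicate number marks, so samples were not treated as pairs. In the contrast between the knockdowns, where the replicates deviated together, the block moved the count at an adjusted p under 0.05 most.

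Within 500 kb, *PDZK1* had 4 peaks, *RBM24* 3 and *LURAP1L-AS1* 8, and 52.3% of genes had a peak in that window. A count of 3 corresponded to between 0.199 and 0.284 CPM, which limits *LURAP1L-AS1* in control siRNA replicate 1.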

Other observations

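*TXNIP*, 288 kb from the *PDZK1* start, differed between replicates of the knockdowns, with 192 and 4891 counts with *TRPS1* siRNA and 551 and 4682 with *CHD4* siRNA, against 2107 and 2902 with control siRNA. *VIM* had 180 and 34 counts with *TRPS1* siRNA, 24 and 38 with control siRNA and 12 and 18 with *CHD4* siRNA. Both were named after their values were seen.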
